A study of Drosophila melanogaster with 25 samples.

Results

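Male and female fly brains were compared after photodynamic exposure (PDE), a treatment in which light and a photosensitising compound together produce reactive oxygen species. The comparison covers the 13 PDE libraries of a series of 25 Drosophila melanogaster libraries: 6 from males after PDE and 7 from females after PDE, taken by their labelled sex and treatment, with no control library in the fit. The other 12 libraries, 7 from male controls and 5 from female controls, gave every gene a second male and female difference that shares no library with the first. All 4 groups are labelled as brain cells. Sample titles write PDT (photodynamic therapy) where the series' design writes PDE, and both were read as 1 long-term treatment. Strain, alleles, fly age, photosensitiser, light source and length of treatment are not stated in the sources used here. Whether each library is a separate fly, a pool or a repeat of 1 sample is not labelled either, so a p-value measures only the spread between these samples, part of which may be technical.

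Male flies carry a single X chromosome and raise its output by dosage compensation, in which the male-specific lethal (MSL) complex and the noncoding RNAs roX1 and roX2 coat the X chromosome. In females the RNA-binding protein Sex-lethal blocks production of MSL2, the limiting subunit, and directs the female splicing of transformer, which in turn sets the sex-specific forms of doublesex and fruitless. Outside the nervous system the same pathway controls the yolk proteins and other secreted products of the female fat body, a tissue that also lies around the brain in the head.

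Levels are in RPKM, which divides the reads of a gene by its length in kilobases and by the total reads of its library. Library totals, recovered from the steps between RPKM values, were 11.2 M to 28.26 M reads in males and 21.58 M to 48.3 M reads in females after PDE. Of 20 neuron markers 16 were tested, among them nSyb, for a synaptic vesicle protein, at 275 to 298 RPKM in males and 271 to 296 RPKM in females. The neuronal RNA-binding gene elav was listed at no more than 0.032 RPKM in any of the 13 libraries and Tdc2 at 0 in all of them, so neither could serve as a marker here. Retina markers varied widely between libraries: their summed RPKM ran from 613 to 9343 in males (median 1170.0) and from 534 to 2371 in females (median 1154). The 12 Y-linked genes looked up did not reach 1 RPKM in any PDE library of either sex, and none was tested.

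Differences are male minus female on the log2(RPKM + 1) scale, which understates those of low genes. A gene was called when limma's adjusted p (Benjamini-Hochberg over 7785 genes) was under 0.05. Of the 7785 genes that reached 1 RPKM in 5 or more of the 13 libraries, 117 were higher in males (1.5%) and 248 were higher in females (3.19%), 365 in all (4.69%). The median difference of all genes was −0.0059. Most differences were small: 78 of the 117 and 216 of the 248 were under 0.5 in size, and 19 reached 1. The male and female libraries did not overlap for 233 genes (2.99%), 69 with every male library above (0.886%) and 164 with every female library above (2.11%). In controls the sexes were apart for 231 of the same genes (2.97%), 82 with males above (1.05%) and 149 with females above (1.91%). The balance of the split moved with the settings: 220 genes were higher in males and 235 in females with median-ratio scaling, and 182 and 221 with quantile normalization. Limma voom, which changes the values, the scaling and the weights together, gave 216 and 213. Without male PDE replicate 4 there were 77 genes higher in males and 205 higher in females. Without the 4 libraries with a summed retina-marker level over 2000 RPKM, a choice made after seeing the data, 43 genes were higher in males and 81 in females. The libraries left out were male PDE 3, male PDE 5, female PDE 2 and female PDE 3. Effects of retina content and of fewer libraries cannot be told apart in that fit. With all 13 libraries and the retina-marker mean as a covariate the counts were 120 and 203.

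The RNAs of the dosage compensation machinery gave the largest differences. roX1 (FBgn0019661, dm6 chrX:3857230-3862697, minus strand) was at 1830 to 2130 RPKM in males (median 2002) and at 11.4 to 17.3 RPKM in females (median 13.7). No library of either sex came near the other, and all 13 matched their labelled sex. The mean level of lncRNA:roX1 was 143-fold higher in males, and the log2 difference was 7.07 (SE 0.077, limma adjusted p = 1.05e-16). The shorter roX2 (FBgn0019660, chrX:11579065-11580432, plus strand) was at 131 to 178 RPKM in males (median 165) and at 0.832 to 2.27 RPKM in females (median 1.19). Its males also lay far above every female, by 119-fold in mean level and 6.10 on the log2 scale (SE 0.12, limma adjusted p = 1.85e-13 for lncRNA:roX2). Per kilobase of gene length roX1 was the more abundant of the pair in every library of both sexes. The gene ec overlaps roX1 on the opposite strand, and as no source used here gives the strand setting of the counting, reads of such partners cannot be told apart.

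The protein subunits differed much less. msl-2 (FBgn0005616, chr2L:3462218-3466112, minus strand) was at 33.8 to 37.6 RPKM in males (median 34.6) and at 27.6 to 30.7 RPKM in females (median 29.4). All 6 male libraries lay above all 7 female libraries, and the difference of 0.27 (SE 0.038, limma adjusted p = 0.000766) was 0.27 in controls too (SE 0.051, limma adjusted p = 0.0126). The remaining 7 tested members of the list were not called. They were msl-1, msl-3, the helicase gene mle, the acetyltransferase gene mof, the zinc finger gene Clamp, the histone kinase gene JIL-1 and Unr, and their differences lay between −0.12 (msl-3) and 0.12 (mof). In all, 3 of the 10 tested members of the dosage compensation list were higher in males and 0 in females, beside a background of 4.69%, and the list's median was −0.0029.

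Of 14 tested sex determination genes, Sxl (FBgn0264270, chrX:7074550-7098053, minus strand), the master switch of female development, was the single gene called. The share called was 4.69% over all genes and 20.8% on the X, where Sxl lies. Sxl was at 28.6 to 32.6 RPKM in males (median 31.6) and at 46.0 to 53.4 RPKM in females (median 48.4). The groups were apart, with a difference of −0.64 (SE 0.041, limma adjusted p = 4.9e-07) and a mean 1.58-fold higher in females. Gene-level values do not show which Sxl isoforms were present. tra was at 13.7 to 15.5 RPKM in males (median 14.9) and at 15.7 to 19.8 RPKM in females (median 16.8), again without overlap, but missed the threshold at −0.20 (SE 0.053, limma adjusted p = 0.0516). It passed without 1 of the 13 libraries and under 5 of 13 other settings. tra2, its splicing partner, was at −0.20 (SE 0.06, limma adjusted p = 0.0841), and fru, the neuronal effector, was at 0.14 (SE 0.076, limma adjusted p = 0.39). dsx stayed under 1 RPKM in all 13 libraries and was not tested. The genes of the m6A writer and reader that assist Sxl splicing (Mettl3, Mettl14, fl(2)d, vir, nito, Hakai, Ythdc1) lay between −0.060 and 0.14, and none was called. The remaining members were the splicing factor gene snf at −0.18 (SE 0.061, limma adjusted p = 0.13), ix, a partner of dsx, at −0.06, and her at 0.10. snf passed with quantile normalization (0.0311) and with median-ratio scaling (0.0484).

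**Figure D1:**
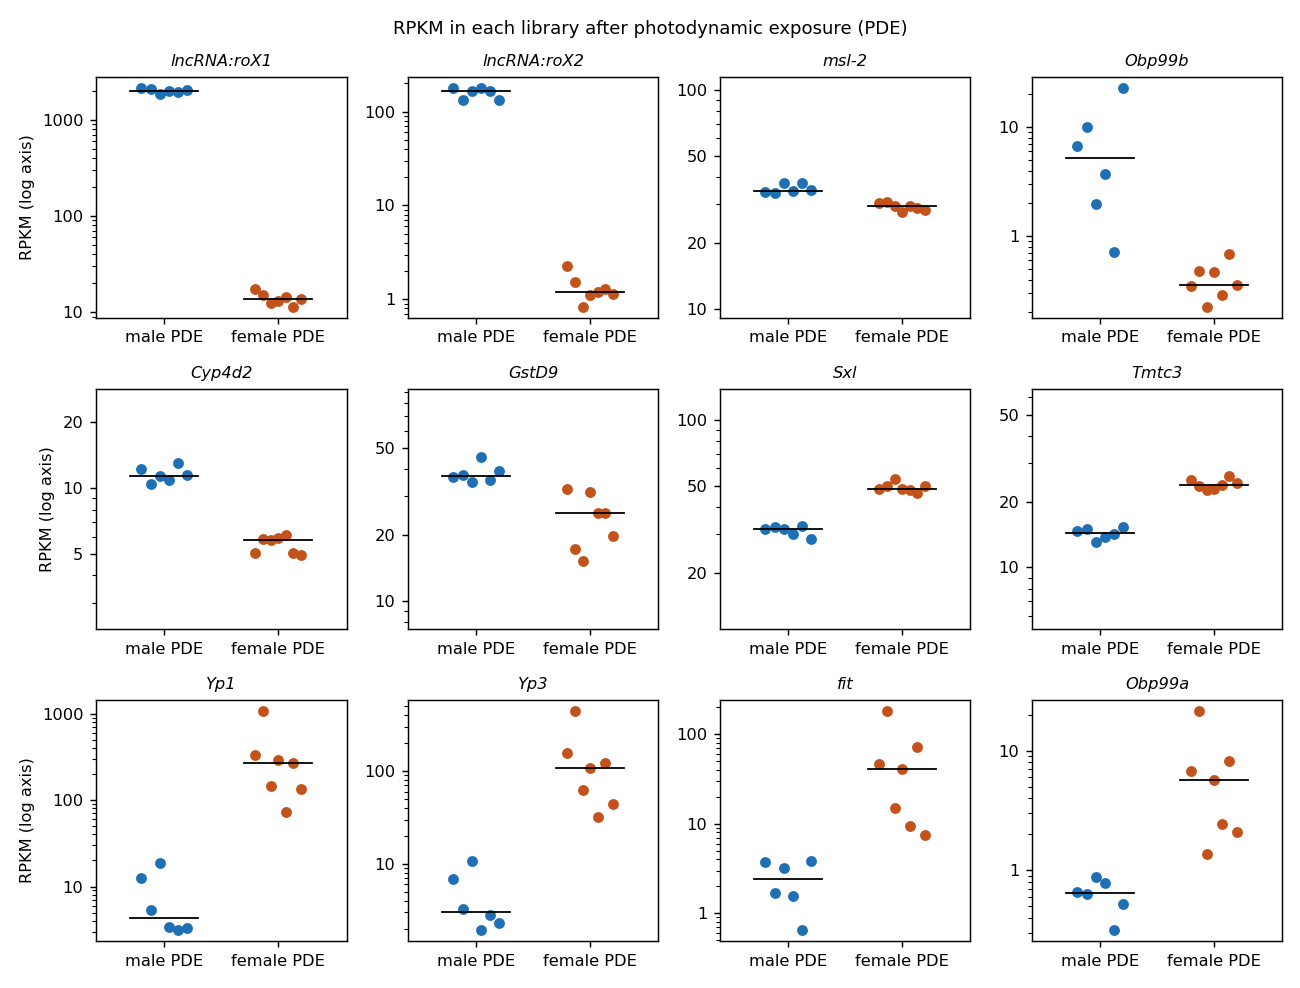
RPKM on a log axis for 12 genes in each of the 6 male PDE libraries (blue, left) and 7 female PDE libraries (orange, right), in replicate order, with lines at the medians. The sexes do not overlap for any of the 12, which were all picked among called genes. Obp99a reached 1 RPKM only in females and Obp99b only in males, so their lack of overlap adds no support. The spread within a sex is narrow for roX1, msl-2, Sxl and Tmtc3 and wide for Yp1, Yp3, fit, Obp99a and Obp99b.

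The largest female excess was found in yolk protein genes, which encode secreted products of the fat body. Yp1 (FBgn0004045, chrX:10053811-10055498, plus strand), a yolk protein gene, was at 3.14 to 18.7 RPKM in males (median 4.34) and at 72.8 to 1067 RPKM in females (median 270.0). The lowest female lay above the highest male, and the females themselves spread over more than a factor of 10, with female PDE 2 highest. Means were 7.72 ± 6.45 RPKM in males and 330.1 ± 338 RPKM in females (SD, n = 6 and 7), and the log2 difference was −5.05 (SE 0.56, limma adjusted p = 9.41e-05). Its neighbour Yp2 (FBgn0005391, chrX:10050951-10052636, minus strand) was at 1.51 to 8.16 RPKM in males (median 3.49) and at 37.5 to 698 RPKM in females (median 116), a difference of −4.86 (SE 0.55, limma adjusted p = 0.000119). Yp3, another yolk protein gene farther along the X, was at 1.94 to 10.8 RPKM in males (median 3.04) and at 32.1 to 439 RPKM in females (median 107), a difference of −4.31 (SE 0.53, limma adjusted p = 0.000232). All 3 were higher in females without overlap. The yolk protein genes are related in sequence, so reads of one copy may have been counted for another, and Yp1 overlaps asRNA:CR45601 on the opposite strand.

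Among sex-biased genes of the head, fit, which encodes a secreted peptide of the female fat body, was at 0.651 to 3.79 RPKM in males (median 2.44) and at 7.48 to 180 RPKM in females (median 40.6). The groups did not overlap, and the difference was −3.34 (SE 0.63, limma adjusted p = 0.00618). The odorant-binding protein gene Obp99a was at 0.317 to 0.878 RPKM in males (median 0.649) and at 1.37 to 21.5 RPKM in females (median 5.71), a difference of −1.88 (SE 0.42, limma adjusted p = 0.0181). Its relative Obp99b went the other way, at 0.724 to 22.8 RPKM in males (median 5.204) and at 0.225 to 0.692 RPKM in females (median 0.358), a difference of 2.11 (SE 0.46, limma adjusted p = 0.0166). Both odorant-binding genes separated the sexes completely. The lowest male, PDE 5, exceeded the highest female by little for Obp99b (0.724 against 0.692 RPKM). Obp99c, in the same cluster on 3R, did not differ in level between the sexes by more than its error (−0.00076, SE 0.33, limma adjusted p = 0.999). takeout (to), known as a male-biased gene of the head, was at 16.2 to 180 RPKM in males and at 10.6 to 138 RPKM in females and was not called (0.82, SE 0.61, limma adjusted p = 0.565). Over the list, Obp99b was called higher in males and fit and Obp99a in females, beside 1.5% and 3.19% of all genes. Obp99a passed the filter on low values only through females and Obp99b only through males, so a difference was built into their being tested. Their calls and their lack of overlap therefore add no support. The calls of Obp99a and Obp99b were lost with limma voom (adjusted p 0.099 and 0.0692) and with a pseudocount of 5 (0.0676 and 0.0565), and that of fit was lost with voom (0.135) and without the retina-rich libraries (0.0549).

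The fat body markers themselves overlapped between the sexes. Their summed RPKM was 61.4 to 111 in males and 65.7 to 122 in females. Of the 9 tested 0 were called, beside 4.69% of all genes. The mean of the markers' log2 values differed by −0.12 (exact two-sided permutation p = 0.329, adjusted over 7 marker lists 0.575). The lipoprotein gene apolpp was at 29.97 to 48.3 RPKM in males and at 26.3 to 58.5 RPKM in females, Lsp2 stayed under 1 RPKM in all males and reached 5.35 RPKM in 1 female, and Fbp2 was listed at 0 throughout. In such bulk samples fewer cells of a type and less RNA per cell cannot be told apart. The part of carried-over fat body in the yolk protein values was not tested.

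Other genes with a large female excess had varied products. Cht2, a chitinase gene on 3L, was at 0.775 to 1.54 RPKM in males (median 1.045) and at 5.11 to 9.28 RPKM in females (median 7.78), a difference of −1.97 (SE 0.14, limma adjusted p = 1.42e-06) without overlap. lncRNA:CR43837, an X-linked noncoding RNA gene, was at 0.968 to 7.38 RPKM in males and at 7.83 to 15.9 RPKM in females, a difference of −1.95 (SE 0.28, limma adjusted p = 0.000777). Obp18a, an odorant-binding protein gene on the X, averaged 59.9 ± 21.6 RPKM in males and 122 ± 33.2 RPKM in females (SD, n = 6 and 7), with overlapping groups (−1.05, SE 0.23, limma adjusted p = 0.0173). Fpgs1, for folylpolyglutamate synthase, averaged 3.92 ± 0.441 RPKM in males and 7.18 ± 0.776 RPKM in females (−0.73, SE 0.073, limma adjusted p = 3.87e-05). pippin, on 2R, was at −1.03 (SE 0.25, limma adjusted p = 0.0317). It lost its call in 7 of the 13 fits that each left out 1 library (adjusted p up to 0.07). Obp18a lost its call with the replicate block (limma adjusted p = 0.0853).

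Autosomal genes with a tight female excess were led by Tmtc3 (FBgn0020312, chr2R:21123735-21128510, minus strand), an enzyme gene of protein O-mannosylation. Tmtc3 was at 13.04 to 15.4 RPKM in males (median 14.4) and at 22.7 to 26.3 RPKM in females (median 23.7). Both groups were narrow and far apart. The mean in males was 0.596 of that in females, with a difference of −0.71 (SE 0.045, limma adjusted p = 4.9e-07) after PDE and −0.80 (SE 0.056, limma adjusted p = 4.86e-06) in controls. KaiR1D, for a kainate-type glutamate receptor, was at 18.2 to 22.4 RPKM in males (median 20.6) and at 25.3 to 29.6 RPKM in females (median 28.2), a difference of −0.43 (SE 0.049, limma adjusted p = 0.000119). Plod (procollagen lysyl hydroxylase), l(3)neo38 (a zinc finger protein), CG4393 and glec (a carbohydrate-binding membrane protein) followed with differences from −0.31 to −0.25 and no overlap between the sexes. Plod overlaps CG7607 and nkt. CG4393 and glec lost their calls without the retina-rich libraries (limma adjusted p = 0.0922 and 0.0898).

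Genes higher in males by a wide margin were mostly X-linked and of modest level. CG4586 was at 4.87 to 6.67 RPKM in males (median 5.25) and at 0.732 to 1.45 RPKM in females (median 1.11), a difference of 1.65 (SE 0.09, limma adjusted p = 8.68e-08). Cyp4d2, a cytochrome P450 gene, was at 10.4 to 13.1 RPKM in males (median 11.4) and at 4.93 to 6.09 RPKM in females (median 5.80), a difference of 0.95 (SE 0.062, limma adjusted p = 4.9e-07). Neither gene overlapped between the sexes, but asRNA:CR44690 lies on the strand opposite Cyp4d2. CG1529 (0.81, SE 0.083), CG2124 (0.79, SE 0.065), CG10352 (0.68, SE 0.1) and CG4293 (0.63, SE 0.064) were also X-linked, called and without overlap. So were FucTC, for a fucosyltransferase (0.60, SE 0.06), Rrp45, an RNA exosome subunit (0.51, SE 0.058), and CG8939 (0.39, SE 0.046). CG10352 lost its call without the retina-rich libraries (limma adjusted p = 0.0542).

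On the autosomes, GstD9, for a glutathione S-transferase, was at 34.9 to 45.4 RPKM in males (median 37.2) and at 15.2 to 32.3 RPKM in females (median 25.2), a difference of 0.71 (SE 0.16, limma adjusted p = 0.0177) without overlap. GstD9 lost its call without the retina-rich libraries (0.0752). Acsx2, of the acyl-CoA synthetase family, was at 4.14 to 6.58 RPKM in males (median 5.63) and at 1.58 to 4.02 RPKM in females (median 3.07), also without overlap (0.75, SE 0.15, limma adjusted p = 0.011). Acsx2 lost its call with the replicate block (0.0602) and without the retina-rich libraries (0.153). cGlr2, for a cGAMP synthase-like receptor of innate immunity, averaged 6.17 ± 0.51 RPKM in males and 4.11 ± 0.573 RPKM in females (SD, n = 6 and 7; 0.49, SE 0.073, limma adjusted p = 0.00104). Pi3K21B, the regulatory subunit of PI3-kinase, differed by 0.16 (SE 0.035, limma adjusted p = 0.0146), a shift that lost its call with quantile normalization and with median-ratio scaling. TwdlG (a Tweedle cuticle protein gene, 0.39), CG6356 (0.52) and lncRNA:CR44785 (0.48) were called but lost the call in 3, 4 and 6 of the 13 fits without 1 library, with adjusted p up to 0.0534, 0.0554 and 0.0747.

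The X chromosome held 268 of the 365 called genes, 73.4% of the calls and 16.56% of the genes tested. That share was 61.5% to 83.1% over the other settings and libraries left out. Of 1289 tested X-linked genes, 93 were higher in males and 175 in females (20.8%), against 21 and 68 of 6373 genes on arms 2L, 2R, 3L and 3R (1.40%). Both directions were thus more frequent on the X. The median difference of X-linked genes was −0.07 after PDE and −0.05 in controls, against −0.00013 and −0.0041 on the autosome arms. X-linked genes also spread more widely, from −0.37 at the 5th percentile to 0.38 at the 95th, against −0.20 and 0.19. Called X-linked genes had median differences of 0.39 where males were higher and −0.27 where females were higher. The small chromosome 4 had 3 genes higher in males and 4 in females among 86 tested, with a median of −0.05 after PDE and −0.09 in controls.

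**Figure D2:**
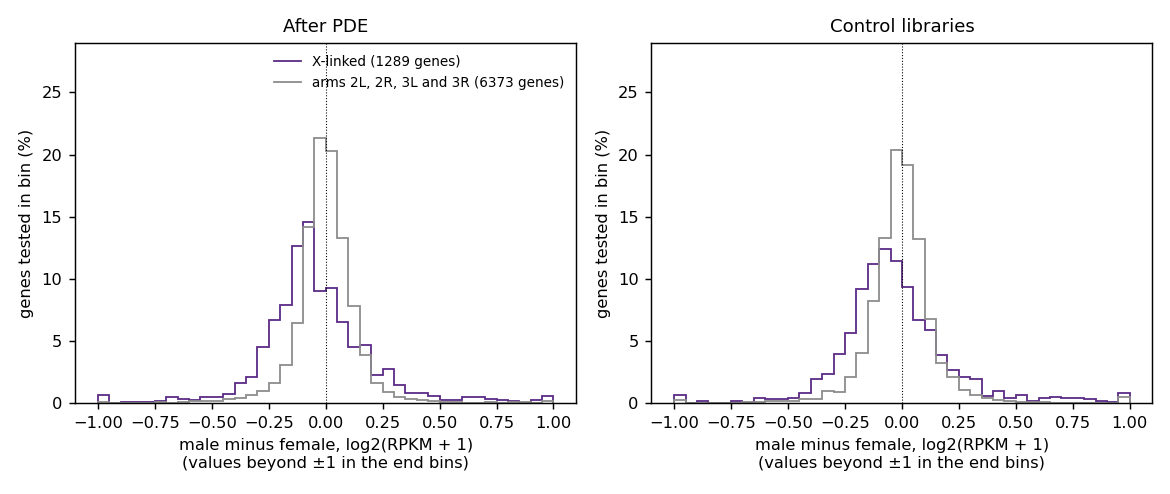
Share of genes in bins of the male minus female difference of log2(RPKM + 1), for 1289 X-linked genes (purple) and 6373 genes of the 4 large autosome arms (grey), after PDE (left) and in controls (right). The X-linked curve is wider and its peak lies left of 0 in both panels, with medians of −0.07 and −0.05.

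As 1 value per library, the ratio of the median RPKM of X-linked genes to that of autosomal genes was 0.941 to 0.988 in males (median 0.954) and 0.972 to 1.02 in females (median 1.001). The ranges overlapped slightly, and the means differed by −0.043 (exact two-sided permutation p = 0.00233 over 1716 arrangements). In controls the ratio was 0.961 to 1.01 in males and 0.985 to 1.04 in females, a difference of −0.029 (exact two-sided permutation p = 0.0429). Taken over summed instead of median RPKM the PDE difference was −0.00313 (exact two-sided permutation p = 0.303).

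Female excess on the X was concentrated in long genes, a split chosen after the values were seen and therefore given without a test. Among the 295 X-linked genes of the longest quintile, with spans from 9048 bases, 64 were called higher in females and 2 in males (CG4313 and mthl1), the median difference was −0.12, and 255 lay below 0. In controls the same genes had a median of −0.11 and 248 lay below 0. Among the 188 X-linked genes of the shortest quintile, up to 1336 bases, 11 were higher in females and 19 in males, with a median of 0.0054. Autosomal genes showed a weaker slope in the same direction, with medians of −0.03 in the longest quintile and 0.04 in the shortest after PDE, and −0.01 and −0.0048 in controls. The gene lengths behind the RPKM equalled the annotated genomic span, which includes any introns, for 87.6% of the genes with reads.

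Within single libraries, the median log2(RPKM + 1) of X-linked genes minus that of autosomal genes in the longest quintile was 0.13 to 0.18 in males and 0.22 to 0.33 in females after PDE. It was 0.15 to 0.19 in male controls and 0.23 to 0.30 in female controls. The sexes did not overlap in either condition in the longest quintile, and they overlapped in the other 4 quintiles in both.

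**Figure D3:**
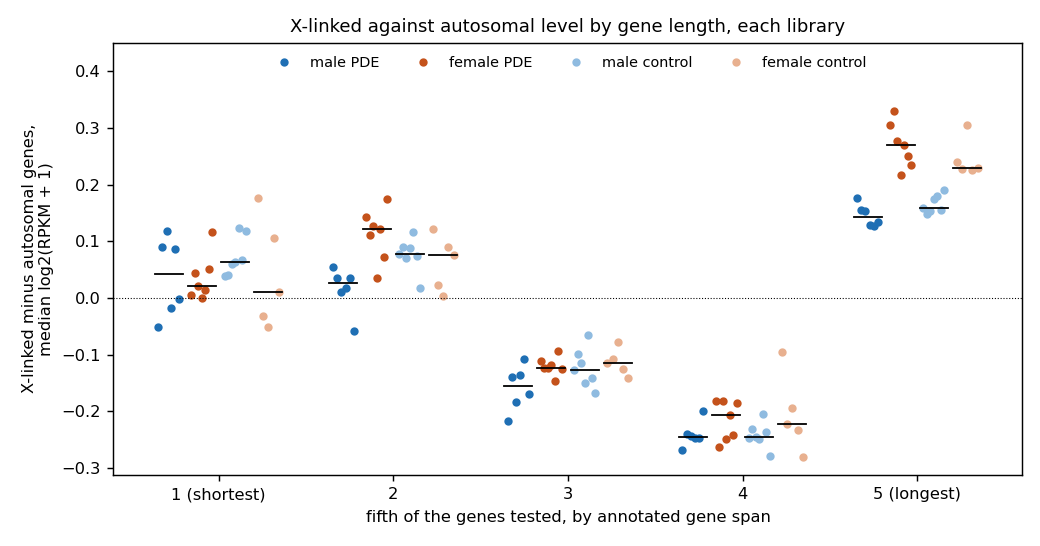
Median log2(RPKM + 1) of X-linked genes minus that of autosomal genes in each library, in quintiles of the tested genes by annotated span, for male PDE, female PDE, male control and female control libraries, with lines at the group medians. In the longest quintile every male library lies below every female library, at 0.13 to 0.18 against 0.22 to 0.33 after PDE.

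Named genes of that longest quintile included several regulators. Sxl led it, followed by ewg, a transcription factor of neurons, at 18.3 to 21.1 RPKM in males (median 20.4) and 24.4 to 28.0 RPKM in females (median 27.0). Its groups were apart by −0.38 (SE 0.043, limma adjusted p = 0.000119). Myc, the growth regulator, was at 22.05 to 27.6 RPKM in males (median 25.6) and 32.8 to 48.5 RPKM in females (median 39.9), apart by −0.66 (SE 0.08, limma adjusted p = 0.000206). Septin4 (−0.36), its neighbour CG4678 (−0.36), the TEAD transcription factor gene sd (−0.29) and Pdcd4 (−0.22) were likewise lower in males without overlap. These genes were picked from those with the smallest p in the quintile, after their values were seen. X-linked genes lower in males at other lengths included CG18508 (−0.65, SE 0.063), CG8300 (−0.47, SE 0.049) and the splicing-related gene Rnp4F (−0.32, SE 0.035).

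Calls were spread along the X: in quintiles of its tested genes by position, 19.1% to 22.9% were called, beside 20.8% for the whole chromosome. Of the 1288 pairs of adjacent tested X-linked genes, 61 had both members called, 43 of them in the same direction and 18 in opposite directions. With 20.8% of X-linked genes called, this count alone does not show that called genes lay closer together.

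Some neighbouring genes were chosen after their values were seen. nod, brv3, CG14770, CG15308 and asRNA:CR45629 passed the filter on low values only through the sex in which they were high, as did 16 of the 365 called genes in all, so their values are given without a test. nod, a kinesin gene that follows roX2 on the same strand after a gap of 339 bases, was at 1.84 to 3.32 RPKM in males (median 2.58) and at 0.281 to 0.599 RPKM in females (median 0.419), a difference of 1.31 (SE 0.09). brv3, a channel gene of the TRP superfamily, was at 2.27 to 3.17 RPKM in males and at no more than 0.222 RPKM in females (1.77, SE 0.081). Its overlapping neighbour Seipin, a lipid droplet gene, was at 3.61 to 4.91 RPKM in males and 1.82 to 2.51 RPKM in females (0.73, SE 0.079, limma adjusted p = 8.88e-05). CG14770 was at 2.69 to 3.92 RPKM in males and 0.308 to 0.741 RPKM in females (1.499, SE 0.097). It precedes ssx, a paralog of Sxl, which was at 64.4 to 71.7 RPKM in males and 44.6 to 59.3 RPKM in females (0.34, SE 0.054, limma adjusted p = 0.002).

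In the other direction, the innexin gene Inx7 was at 0.725 to 1.87 RPKM in males and at 3.49 to 5.22 RPKM in females, beside lncRNA:CR43837 (−1.27, SE 0.11, limma adjusted p = 1.02e-05). CG15308 and asRNA:CR45629, which overlap on opposite strands, were at 0 to 0.146 RPKM and listed at 0 in males and at 1.01 to 1.75 and 0.646 to 1.61 RPKM in females. Mcm3, a replication helicase subunit gene, was higher in males (0.85, SE 0.09) although its neighbour Rnp4F was lower (−0.32, SE 0.035). For Inx7, lncRNA:CR43837, Mcm3 and Rnp4F the sexes did not overlap. CG15308 and asRNA:CR45629 passed the filter on low values only through females, so their lack of overlap adds no support. Apart from Rnp4F these genes were at low levels, and reads of overlapping partners cannot be told apart.

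Among stress and metabolic gene lists, chaperones leaned to males. Of 18 tested heat shock and chaperone genes, 17 were above 0, 3 were called higher in males and 0 in females, beside 1.5% and 3.19% of all genes, and the median was 0.24 after PDE and 0.22 in controls, beside −0.0059 for all genes. The called genes Hsc70-3 and Hsp60A are X-linked, and on the X 20.8% of genes were called. Hsc70-3, the BiP chaperone of the endoplasmic reticulum, was at 79.3 to 98.9 RPKM in males (median 86.2) and at 65.8 to 77.1 RPKM in females (median 69.2), apart by 0.32 (SE 0.051, limma adjusted p = 0.00194). Hsp60A, the mitochondrial chaperonin, was at 167 to 207 RPKM in males (median 184) and at 144 to 181 RPKM in females (median 146), overlapping, at 0.27 (SE 0.065, limma adjusted p = 0.0318). Hsp68, an inducible Hsp70-type gene, was at 2.28 to 3.66 RPKM in males and at 1.78 to 2.61 RPKM in females (0.36, SE 0.095, limma adjusted p = 0.0454). The calls of Hsp60A and Hsp68 were lost in 9 and 10 of the 13 fits without 1 library (adjusted p up to 0.0736 and 0.102), and that of Hsc70-3 in none. Hsc70-3 lost its call with all 4 groups in 1 fit (adjusted p 0.226) and without the retina-rich libraries (0.0607). In the latter fit, which held fewer libraries, its difference was 0.32. Hsp83, the Hsp90 gene, was at 382 to 702 RPKM in males and at 338 to 501 RPKM in females and was not called (0.41, SE 0.15, limma adjusted p = 0.142). Hsp70 copies are nearly identical, so their values are uncertain, and the single list member below 0 was the regulator Hsf (−0.11).

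Subunit genes of respiratory complex I, the first enzyme of the mitochondrial electron transport chain, showed a like lean. Of 32 tested, 28 were above 0, 3 were higher in males and 0 in females, beside 1.5% and 3.19% of all genes, and the median was 0.14 after PDE and 0.14 in controls. Of the 8 X-linked members 2 were called, ND-75 and ND-B14.5A. ND-75, the iron-sulfur subunit, was at 129 to 149 RPKM in males and at 111 to 137 RPKM in females (0.19, SE 0.052, limma adjusted p = 0.0463). ND-39 was at 47.2 to 54.2 RPKM in males and at 40.9 to 50.5 RPKM in females (0.20, SE 0.052, limma adjusted p = 0.0378), and ND-B14.5A was at 62.4 to 76.4 RPKM in males and at 43.7 to 63.4 RPKM in females (0.30, SE 0.08, limma adjusted p = 0.0468). All 3 overlapped between the sexes, and each lost its call in 10 of the 13 fits without 1 library, with adjusted p up to 0.105. In these lists, chaperones and complex I, 11 of 18 and 13 of 32 genes had an unadjusted p under 0.05, beside 1341 of 7785 genes. The shortest quintile of autosomal genes had a median of 0.04 after PDE and −0.0048 in controls. Lengths of the list members were not compared with those of other genes. The part of gene length in the medians of both lists was not tested.

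**Figure D4:**
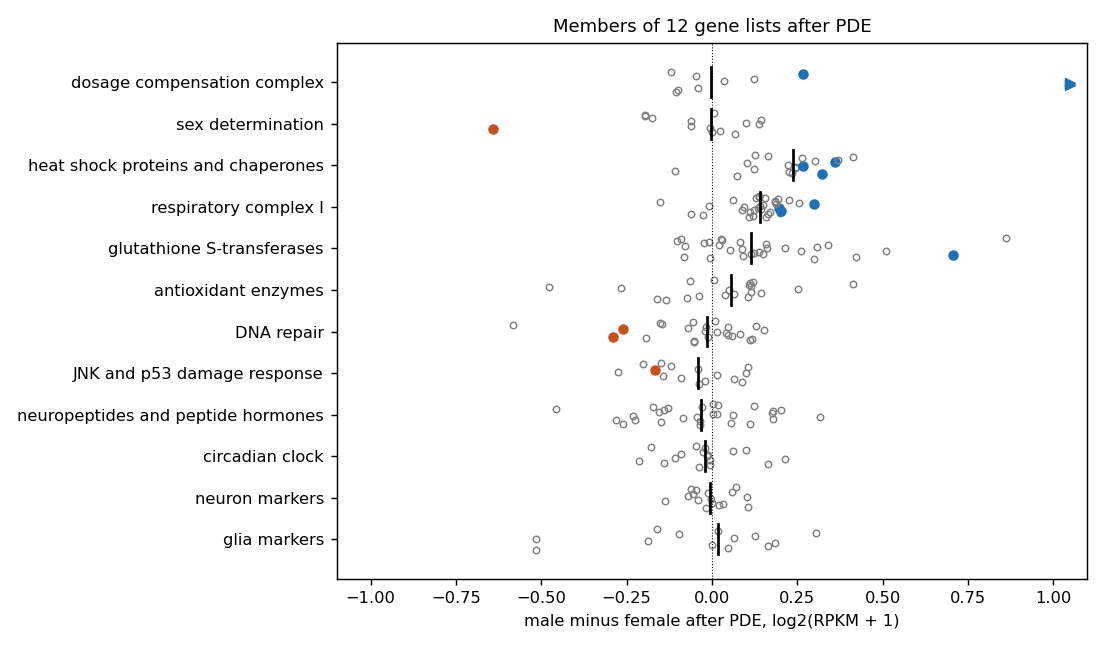
Male minus female difference of log2(RPKM + 1) after PDE for each tested member of 12 gene lists, filled where called (blue higher in males, orange higher in females) and open where not, with a bar at each list's median. The arrowheads at the right edge stand for roX1 and roX2 at 7.07 and 6.10, and the chaperone and complex I medians lie at 0.24 and 0.14.

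In the redox and damage lists few genes were called, and the share called over all genes was 4.69%. Of 29 glutathione S-transferase genes 22 were above 0 and GstD9 was the 1 called (list median 0.11 after PDE, 0.14 in controls). Its cluster neighbours GstD1 and GstD3 were at 0.30 and 0.42 and not called (limma adjusted p = 0.191 and 0.159). None of 20 antioxidant genes was called, and Prx6c (−0.48, SE 0.14, limma adjusted p = 0.0754) and Sod3 (0.41, SE 0.17, limma adjusted p = 0.21) had the smallest p. Of 24 DNA repair genes 2 were higher in females. mei-9, the nucleotide excision repair endonuclease gene, was at 4.63 to 6.05 RPKM in males (median 5.46) and at 6.18 to 6.93 RPKM in females (median 6.64), apart by −0.26 (SE 0.054, limma adjusted p = 0.0116). Ku80, for DNA end joining, was at −0.29 (SE 0.076, limma adjusted p = 0.0459) and hep, the JNK kinase gene and the 1 call among 15 JNK and p53 genes, was at −0.17 (SE 0.045, limma adjusted p = 0.0476). Both lost the call in 10 of the 13 fits without 1 library (adjusted p up to 0.0975 and 0.106). grim, a cell death gene, missed the threshold at −0.28 (SE 0.076, limma adjusted p = 0.054) and passed under 3 of 13 other settings. Ercc1, the excision repair partner gene, was at 0.33 (SE 0.091, limma adjusted p = 0.0581) and passed under 5. mei-9 lost its call with the replicate block (0.0685) and without the retina-rich libraries (0.0693). Both mei-9 and hep are X-linked, and on the X 20.8% of genes were called. mei-9 shares 830 bases on the same strand with lncRNA:CR44957, which was also called higher in females (−0.29). Reads of the shared stretch cannot be told apart.

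Genes named for their response to PDE in an earlier description of these libraries were not called between the sexes after PDE. Arc1, for a capsid-forming protein, was at 31.3 to 121 RPKM in males (median 79.2) and at 55.7 to 99.0 RPKM in females (median 73.7), a difference of −0.04 (SE 0.25, limma adjusted p = 0.962). Arc2 (0.09, SE 0.14), the stress-inducible transcription factor gene Xrp1 (−0.14, SE 0.067), Gadd45 (−0.02, SE 0.11), GstE1 (0.11, SE 0.15), the innate immune gene Sting (−0.15, SE 0.27) and CG9377 (0.41, SE 0.14) were not called either, with limma adjusted p from 0.124 to 0.962 over these 7 genes. CG9377 was called without female PDE 2 (0.51, adjusted p 0.0253). The secreted stress protein gene TotA was at 127 to 1302 RPKM in males and at 32.5 to 1280 RPKM in females and overlapped. TotC and TotM overlapped as well. Male PDE 6 and female PDE 2 were the highest of their sex for all 3 Turandot genes. None of the 12 tested antimicrobial and Bomanin peptide genes was called, beside 4.69% of all genes.

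As reported, no gene was called among the tested neuropeptide (28), circadian clock (17), glycolysis (14), lipid (14), neuron (16) and glia (13) genes. The same held for the tested haemocyte (10), muscle (6), antenna (5), male germline (2) and pheromone (2) genes. None of the female germline genes reached the test. Over all genes 4.69% were called, so the absence of a call in lists this small does not show that the sexes were alike. Proc, a neuropeptide gene, was at 10.1 to 15.1 RPKM in males (median 13.5) and at 14.3 to 24.1 RPKM in females (median 17.6), just short of the threshold (−0.46, SE 0.12, limma adjusted p = 0.0538), and passed under 6 other settings and without female PDE 2 or female PDE 3. Mdr65, a transporter gene of blood-brain barrier glia, was at −0.52 (SE 0.15, limma adjusted p = 0.0707) and passed under 4 other settings and without female PDE 1. Gapdh1, for a glycolytic enzyme (0.23), the neuropeptide receptor gene Pdfr (−0.21) and the glial gene zyd (−0.16) passed under 3, 2 and 1 of the 13 other settings. Of 26 tested retina markers, 21 were above 0, with a median of 0.45 after PDE and 0.90 in controls. Retina genes varied widely within each sex, and the per-library mean of the list did not pass the test (0.39, exact two-sided permutation p = 0.455, adjusted over 7 lists 0.636). The 3 retina markers called were all X-linked, where 20.8% of genes were called: car was higher in males (0.24) and g and inaE in females (−0.27 and −0.18). car and g encode proteins of vesicle trafficking and inaE a lipase. The photoreceptor gene ninaE, for the main rhodopsin, was at 11.9 to 5078 RPKM in males and at 26.2 to 1162 RPKM in females and was not called. Without male PDE 4 car lost its call (adjusted p 0.0519), and inaE lost it in 6 of the 13 fits without 1 library (adjusted p up to 0.0596). No marker list differed between the sexes in its per-library mean, the smallest exact two-sided permutation p being 0.0641 for muscle (0.449 adjusted over 7 lists), where male PDE 1 was highest. The muscle mean, 0.35 higher in males, passed an unadjusted 0.05 without male PDE 2, male PDE 4 or female PDE 2 (0.44, 0.42 and 0.40).

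Set against the controls, the sex differences after PDE recurred in libraries that the PDE comparison did not use. All 117 genes higher in males after PDE and 247 of the 248 higher in females had the same sign in controls. The exception, CG1316, was at −0.15 after PDE and 0.04 in controls. Among the 7420 genes not called, 69.3% had the same sign. Medians of the called genes were 0.38 after PDE and 0.32 in controls where males were higher, and −0.27 and −0.25 where females were higher. In controls 63 genes were called higher in males (0.809%) and 113 higher in females (1.45%), 176 in all (2.26%). The comparisons shared 138 calls, 37.8% of those after PDE and 78.4% of those in controls, none with opposite sign. Control groups numbered 7 and 5 libraries, and the median residual SD on the log2 scale was 0.126 after PDE and 0.138 in controls.

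**Figure D5:**
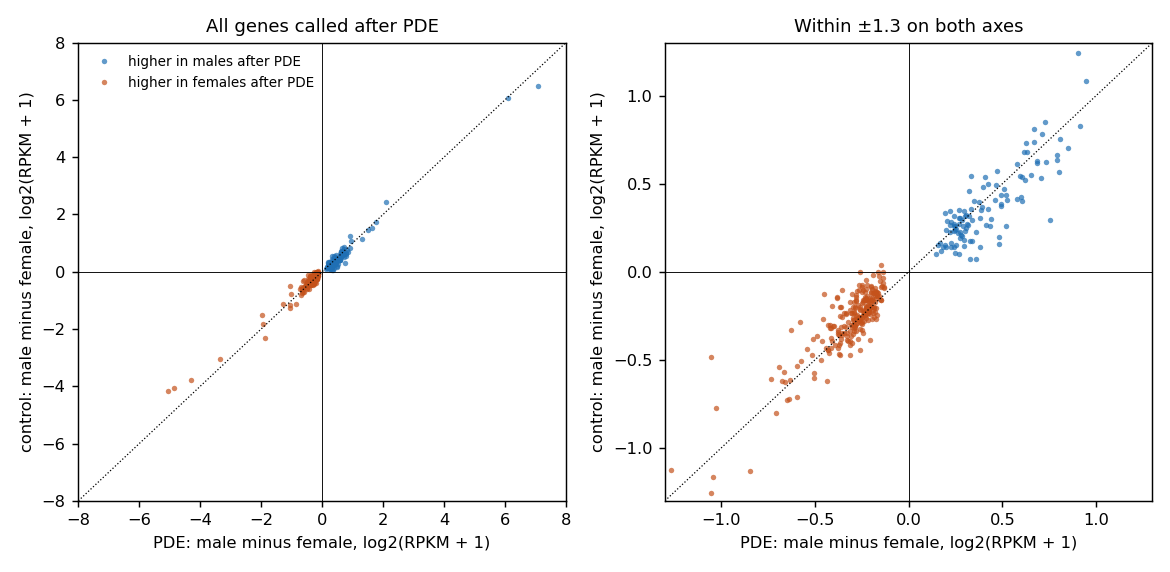
Male minus female difference of log2(RPKM + 1) after PDE (x) against the same in controls (y) for the 365 genes called after PDE, in full (left) and within ±1.3 (right), with a dotted line of equal values. The points follow the line, and all 117 blue points and 247 of the 248 orange points have the same sign on both axes.

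A sex difference that changed with PDE was not found. The test of the PDE difference minus the control difference called 0 of 7785 genes (limma, smallest adjusted p 0.999), with 173 at an unadjusted p under 0.05, and limma voom on recovered reads called 0 as well. One gene was called without female control 4 and 1 without male PDE 6. The smallest unadjusted p belonged to asRNA:CR44095, at −0.74 after PDE and 0.59 in controls, and male PDE 6 stood alone above the other males for it (6.11 RPKM, against a male median of 1.33 RPKM). roX1 was at 7.07 after PDE and 6.49 in controls, where females held 9.58 to 36.8 RPKM (change of the difference 0.59, SE 0.24, unadjusted p = 0.0231, limma adjusted p = 0.999). The female values of roX1 after PDE, 11.4 to 17.3 RPKM, lay above female control 4 (9.58 RPKM) and below the other 4 female controls (22.4 to 36.8 RPKM).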

How the data were processed

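Brain RNA of 25 libraries was measured by sequencing. The labels' protocols give RNA extraction on a Maxwell instrument and libraries from the SMART-Seq mRNA LP kit. The submitters' processing notes name STAR and dm6, with no versions. No source used here gives the read counter, its strand setting or its annotation. The authors deposited RPKM values for 16060 genes, scaled to each library's total, and 0 columns could not be assigned. Of these, 15997 were named and placed by the Ensembl BDGP6.54 annotation (release 115), on the dm6 assembly.

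Values were analysed as log2(RPKM + 1), with no further scaling, in limma 3.58.1 (R 4.3.3; lmFit, eBayes with an intensity trend) on the 13 PDE libraries. A gene was tested if it reached 1 RPKM in 5 or more of them, and an adjusted p (Benjamini-Hochberg, all genes tested) under 0.05 was called. Controls were fitted alone on the same genes, and the change of the sex difference was tested with all 25 libraries. Because RPKM values are whole multiples of 1 read, reads were recovered for 13578 genes (100% of values above 0 whole within 0.001) and used for limma voom, with TMM factors, which called 216 genes higher in males and 213 higher in females. Library totals of 11.2 M to 48.3 M reads limit the precision of low genes, and counting error is only part of the spread. Per-library values were compared by exact two-sided permutation (1716 arrangements, smallest possible p 0.00117). Other steps used scipy 1.17.1, numpy 2.4.6, pandas 2.3.3, Python 3.11.15 and, for plots, matplotlib 3.10.9.

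Members, gene lists and tests were chosen with earlier results of these data known. Of 559 list symbols in 27 lists, 23 were not matched and not analysed here. Genes named were, among called genes that averaged 5 RPKM or more in the higher sex, the 10 largest differences per direction, then 6 autosomal and 4 X-linked genes per direction by smallest p. The rule also took all dosage compensation, sex determination, yolk and sex-biased head genes, up to 4 members of every other list by smallest p, the 3 smallest p per direction of the change of the sex difference, and 10 genes known to respond to PDE. All 150 were followed through the alternatives, and the text gives values for most but not all of them. Neighbouring genes and long X-linked genes outside the rule are marked in the text as picked once their values had been seen. Further genes outside the rule carry no such mark, among them Hsp83, Hsf, apolpp, Lsp2, ninaE, elav and CG1316. They too were named with their values known. Alternatives covered the pseudocount, the filter, the scaling, weights, variance, a retina covariate, a replicate block and each library left out.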

Additional observations from a re-analysis of the deposited data

Results flagged for a closer look

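In 44 of 316 groups of values, the highest or lowest library stood apart. Its distance from the nearest other, as a share of the group's range, was above Dixon's 95% critical value. For independent, normally distributed values chance flags about 1 group in 20. Most groups here held unlogged RPKM, and related genes rose in the same library, so the 44 flags cannot be set against that rate. The share is given after each gene. Female PDE 2 was highest for the yolk protein genes Yp1 (1067 RPKM, 0.74), Yp2 (698 RPKM, 0.678) and Yp3 (439 RPKM, 0.696), and for the other female-biased fat body genes fit (180.3 RPKM, 0.625) and Obp99a (21.5 RPKM, 0.658). It was also highest among females for to (138 RPKM, 0.621), the stress genes TotC (180.2 RPKM, 0.65) and TotM (174 RPKM, 0.613), the immune peptide gene BomS5 (6.86 RPKM, 0.628), the muscle myosin light chains Mlc2 (7.94 RPKM, 0.87) and Mlc1 (3.76 RPKM, 0.762), and the muscle marker mean (0.833).

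Male PDE 6 was the highest male for a set of stress, immune and lipid genes. These were TotM (207 RPKM, 0.848), TotA (1302 RPKM, 0.664), TotC (192 RPKM, 0.654), the antibacterial peptide gene AttA (32.2 RPKM, 0.825), the fatty acid synthesis genes FASN1 (16.1 RPKM, 0.812) and ACC (15.1 RPKM, 0.647), the lipid transfer gene Mtp (8.69 RPKM, 0.704) and the haemocyte gene Hml (1.56 RPKM, 0.745). The same library was highest for lncRNA:CR43837 (7.38 RPKM, 0.811), Obp99c (12.9 RPKM, 0.648), the clock gene per (5.23 RPKM, 0.665), asRNA:CR44095 (6.11 RPKM, 0.915) and the fat body marker mean (0.65).

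Male PDE 1 was highest for the muscle genes Act57B (42.1 RPKM, 0.88), Mlc1 (20.05 RPKM, 0.791) and Mlc2 (29.3 RPKM, 0.77), the muscle marker mean (0.627) and Obp56d (6.57 RPKM, 0.889). Among females, female PDE 6 was highest for the chaperone genes Hsc70-3 (77.1 RPKM, 0.673) and Hsp60A (181 RPKM, 0.608), cGlr2 (5.31 RPKM, 0.616) and car (24.5 RPKM, 0.576). Female PDE 4 was highest for Desat1 (185 RPKM, 0.717) and Obp49a (5.61 RPKM, 0.617), female PDE 3 for nSyb (296 RPKM, 0.697) and Rnp4F (26.9 RPKM, 0.579), and female PDE 1 for Sting (14.9 RPKM, 0.678). Male PDE 3 was highest for pr (31.7 RPKM, 0.681) and Obp19d (12.4 RPKM, 0.631), and male PDE 4 for Rrp45 (6.31 RPKM, 0.648). Male PDE 5 was lowest for CG18508 (28.4 RPKM, 0.682) and male PDE 2 for ND-39 (47.2 RPKM, 0.646).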

How the results depend on the processing

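None of the 52 named genes called after PDE changed sign under 13 alternative settings or with any of the 13 libraries left out. These fits reuse the values that gave the calls, so a change of sign was unlikely from the start. Of the 52, 27 kept the call in all of these fits and 39 with each library left out. Of the named genes not called, 17 gained a call, 14 of them in a setting other than leaving out a library. Counts moved more. Genes higher in males, 117 as reported, numbered 77 with a minimum of 5 RPKM, 182 with quantile normalization, 220 with median-ratio scaling, 205 with array weights, 216 with limma voom and 43 without the 4 libraries rich in retina markers, which were picked after the data were seen. Genes higher in females, 248 as reported, numbered 81 without those 4 libraries. With 1 library left out the counts ran from 77 (without male PDE 4) to 157 in males and from 176 to 259 in females. The median log2 difference of all genes was −0.00594 as reported and −0.000628, 0.0033 and 0.0119 with quantile normalization, median-ratio scaling and voom. Control calls, 176 as reported, numbered 109, 361, 33 and 379 with the 5 RPKM minimum, array weights, the replicate block and all 4 groups in 1 fit, and 124 to 261 with 1 library left out. The change of the sex difference had 0 to 1 calls with 1 library left out, the 1 call without male PDE 6 or female control 4. The cause of these shifts was not tested.

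Whether same-numbered male and female samples formed pairs is not labelled. Over the 6 same-numbered pairs the deviations from the group mean correlated at 0.183, −0.355, 0.344, 0.18, 0.144 and 0.203. Of the 6 males 1 correlated best with its own number. A batch shared by same-numbered samples was not tested. With the replicate block 96 genes were higher in males and 179 in females.

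The X to autosome ratio lost its difference with summed RPKM (−0.00313, exact permutation p = 0.303) and was −0.0488 to −0.0389 with 1 library left out, each time past the threshold. Without 1 library the neuron marker mean differed by −0.0226 to 0.0128 and that of muscle by 0.165 to 0.44. The muscle mean passed an unadjusted 0.05 without male PDE 2, male PDE 4 or female PDE 2. As log2 of summed RPKM, neuron and glia markers differed by 0.0201 and 0.11.

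Uncalled genes near 0 changed sign. vir was at −0.0067, −0.0048 and −0.0327 with array weights, the replicate block and the retina-rich libraries left out. Ythdc1 was at 0.0052, 0.0102, 0.017 and 0.0133 with median-ratio scaling, voom, the retina covariate and the block. Mettl14 was at 0.0016 (pseudocount 0.1), 0.017 (quantile), 0.0068 (median ratio), 0.0594 (array weights), 0.0281 (voom), 0.0181 (retina covariate), 0.0239 (block) and 0.0098 (retina-rich left out). Obp99c was at 0.0015, 0.004, 0.008, 0.0902, 0.0637 and 0.3632 with pseudocount 0.1, quantile, median ratio, voom, the retina covariate and retina-rich left out. With array weights TotM, Arc1 and Gadd45 were at 0.0169, 0.0338 and 0.03, and with voom TotM, Gadd45 and Obp56d were at 0.0434, 0.0249 and −0.0417. Without the retina-rich libraries TotM, Gadd45 and Unr were at 0.0097, 0.0487 and 0.0186, and nSyb was at −0.0236 with quantile normalization.

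With 1 library left out, ranges across 0 were −0.0026 to 0.0564 for mle, −0.0213 to 0.0262 for vir, −0.0319 to 0.0133 for Ythdc1, −0.0208 to 0.0634 for Mettl3, −0.0726 to 0.0308 for Mettl14, −0.2167 to 0.1885 for Obp99c, −0.0166 to 0.0563 for betaTub85D, −0.162 to 0.3193 for Obp56d, −0.2317 to 0.6444 for TotA, −0.8835 to 0.2118 for TotM, −0.1868 to 0.1975 for Arc1, −0.0978 to 0.0477 for Gadd45 and −0.2524 to 0.0768 for Sting. Low genes are limited by depth, from 11.2 M reads in male PDE 1.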
